A study of Mus musculus with 2 samples.

Results

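The clustered protocadherins are cell-surface adhesion proteins encoded by tandem gene arrays, the alpha, beta and gamma families. In the alpha and gamma arrays each gene has its own large variable exon and its own promoter, and its transcripts are spliced to constant exons that the whole family shares, whereas beta genes have no constant exons. The arrays are best known in the nervous system, where single neurons use differing choices of variable promoters and the resulting surface codes let a neuron tell its own branches from those of others. Promoter choice there depends on the DNA-binding protein CTCF, on cohesin and on enhancers that lie among and beyond the constant exons, and DNA methylation silences promoters that are not used. The C-type genes (Pcdhac1, Pcdhac2, Pcdhgc3, Pcdhgc4 and Pcdhgc5) stand at the ends of the alpha and gamma arrays and are regulated apart from the others.

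Members were taken as the protein-coding genes of the GENCODE annotation on mouse chromosome 18 whose symbol starts with Pcdha, Pcdhb or Pcdhg. This gave 57 of 21938 protein-coding genes, namely 12 alpha, 22 beta, 12 gamma A, 6 gamma B and 5 C-type genes. They all read in the same direction and occupy 911.69 kb of chromosome 18, from 36930184 to 37841873 in build mm10. All peaks in this stretch and in 200 kb on either side were examined, a span of 1311.69 kb. GENCODE gives 2 gene IDs the symbol Pcdha11, and the one that starts at 37005203 is called Pcdha10 here, the name RefSeq gives at that place. Pcdhgb8, which the annotation does not count as protein-coding, is not a member.

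The data are 2 DNase-seq libraries of the gastrocnemius, the large calf muscle, from male B6CASTF1/J mice aged 14 days, a first-generation cross of C57BL/6 and CAST. DNase I cuts accessible chromatin, peaks mark stretches of frequent cutting, and footprints are short runs of bases that were cut less than those around them. The libraries are labelled biological replicates of 1 group without a contrast or any treatment. Both carry the same donor entry and the unexplained words 3x Males, so they may hold pooled animals, and the spread between them may be technical. Every value below is given for replicate 1 and then replicate 2, and no test was run. The signal is the authors' value per peak, whose scaling is not given, so the libraries are also compared by percentile. Each library has a strict peak list (82498 and 88198 peaks) and a permissive one (138117 and 139545), and every strict peak of the span contained a base with a false discovery rate (FDR) of 0.001 or less. The strict list is meant wherever no list is named. Of 12 skeletal muscle markers 10 had a promoter peak in both libraries, against 61.7% of all protein-coding genes. Among the 10 were Mylpf (8.65 and 4.73) and Ckm (12.1 and 3.36), while Mb had a peak in replicate 1 (2.88) and Myh4 in neither. In bulk tissue, a weak peak from a few cells and one from low accessibility in many cells cannot be told apart.

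Most clustered protocadherin promoters were closed in this muscle. Promoters were taken as 1 kb before and after the gene's own starts, leaving out starts at constant exons, and closed means that no peak was called there. Of the 57 members, 3 had a promoter peak in both libraries, against 61.7% of all protein-coding genes. The 3 were the C-type genes Pcdhgc3, Pcdhac1 and Pcdhac2. Replicate 1 alone had a peak at 1 more member (1.75% of all genes), replicate 2 alone at 14 more (1.76% of all genes), and 39 had none (34.8% of all genes). Counted per library, 4 members were open in replicate 1 and 17 in replicate 2, against 63.4% of all genes in either library. Alpha, beta, gamma A and gamma B genes had no promoter open in both libraries. This split follows the strict calls and not signal alone. Pcdhgb6 had 0.702 (permissive list) and 0.651, above Pcdhac1 (0.697 and 0.509) and Pcdhac2 (0.596 and 0.413). Its lowest FDR in replicate 1 was 0.00828, against 2.84e-09 at Pcdhac1 and 0.000175 at Pcdhac2.

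**Figure D1:**
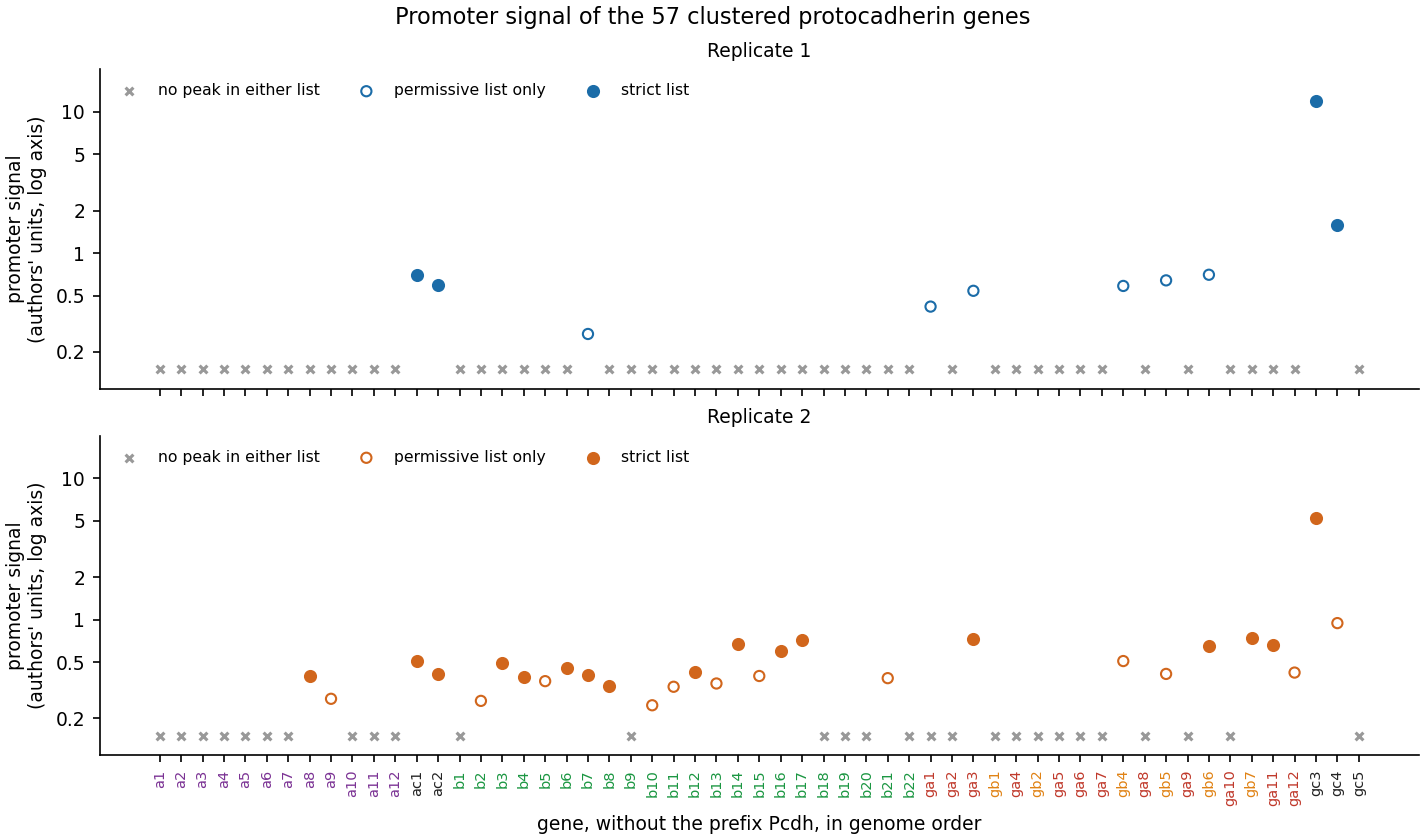
Signal of the strongest promoter peak (authors' units, log axis) of the 57 genes in genome order, replicate 1 above and replicate 2 below, with filled points for the strict list, open points for the permissive list alone and crosses for no peak in either list (placed at the foot, not at a value). Pcdhgc3 stands at 11.98 and 5.22, 14 genes outside the C-type group are filled in replicate 2 and none of those in replicate 1.

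Pcdhgc3, a C-type gene at the end of the gamma array, had the strongest promoter. Its peak at 37806161 to 37806440 had a signal of 11.98 in replicate 1 and 5.22 in replicate 2. Among all protein-coding genes these were percentiles 88.4 and 82.6, a mean of 85.5 ± 4.14 (SD, n = 2), where closed genes are tied at 18.3. A second peak followed in the same promoter window at 37806943 to 37807289, with signals of 1.55 and 0.931. The window held 16 and 14 footprints, the most of any member, and its CpG ratio of 0.835 (CpG pairs observed over expected) was also the highest.

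The other C-type promoters were weaker. Pcdhac1, the first of the alpha C-type genes, had a peak at 37089841 to 37090080 with signals of 0.697 and 0.509, which put it at gene percentile 39.4 ± 0.453. Pcdhac2, next to it, had peaks at the same low level, 0.596 and 0.413, at gene percentile 38.4 ± 0.102. Both were open in both libraries and lay near the lower end of the open genes, whose median signal was 5.95 and 3.40. Pcdhgc4 had peaks in replicate 1 (1.58 for the stronger one), while in replicate 2 the permissive list held one of 0.945 with a lowest FDR of 0.00042. Its stronger peak lay inside the variable exon, with its midpoint 896.5 bases past the start in replicate 1. Pcdhgc5, the last gene of the array, had no promoter peak in any list and no base with an FDR under 0.05, although 99.5% of the 36-base words in its window occur once in the genome.

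Beta genes, which encode whole proteins from single exons, showed the largest number of weak peaks. Of 22 beta promoters, 9 had a peak in replicate 2 and 0 in replicate 1, against 63.4% of all genes in each library. Signals in replicate 2 were 0.495 at Pcdhb3, 0.39 at Pcdhb4, 0.454 at Pcdhb6, 0.408 at Pcdhb7, 0.339 at Pcdhb8 and 0.427 at Pcdhb12. Further along the array they were 0.674 at Pcdhb14, 0.596 at Pcdhb16 and 0.716 at Pcdhb17. The permissive list of replicate 2 added Pcdhb2, Pcdhb5, Pcdhb10, Pcdhb11, Pcdhb13, Pcdhb15 and Pcdhb21, which brought the beta genes with a peak to 16, with signals from 0.248 to 0.716. In replicate 1 the permissive list contained Pcdhb7 alone (0.268). Pcdhb1, Pcdhb9, Pcdhb18, Pcdhb19, Pcdhb20 and Pcdhb22 had no promoter peak in any list.

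In the gamma array, weak peaks lay at members of both variable groups. Pcdhga3 had a peak of 0.734 in replicate 2 and a permissive one of 0.541 in replicate 1, and Pcdhgb6 had 0.651 in replicate 2 and a permissive 0.702 in replicate 1. Pcdhga11 (0.661) and Pcdhgb7 (0.739) had peaks in replicate 2 and none in either list of replicate 1. The neighbours Pcdhgb4 (0.585 and 0.509) and Pcdhgb5 (0.641 and 0.413) were in the permissive lists of both libraries and in no strict list. Pcdhga12 (0.422 in replicate 2) and Pcdhga1 (0.418 in replicate 1) were in 1 permissive list each. At the pseudogene Pcdhgb8, which lies between Pcdhga11 and Pcdhga12, the promoter site at 37761581 to 37761760 had 1.21 in replicate 2 and a permissive 0.702 in replicate 1. Pcdhga2, Pcdhga4 to Pcdhga10, Pcdhgb1 and Pcdhgb2 had no promoter peak in any list.

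Alpha genes were the emptiest family. Of 12 promoters 11 were closed in both libraries, against 34.8% of all genes, and Pcdha8 had a peak of 0.399 in replicate 2. That peak lay 539 bases past the start, inside the variable exon. The permissive list of replicate 2 added Pcdha9 (0.275, lowest FDR 0.0286). The remaining 10 alpha genes had no base with an FDR under 0.05 in either library. A stretch of 189.7 kb without any strict peak runs from 36803118 to 36992848 and takes in the starts of Pcdha1 to Pcdha8, and one of 96.9 kb takes in those of Pcdha9 to Pcdha12.

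**Figure D2:**
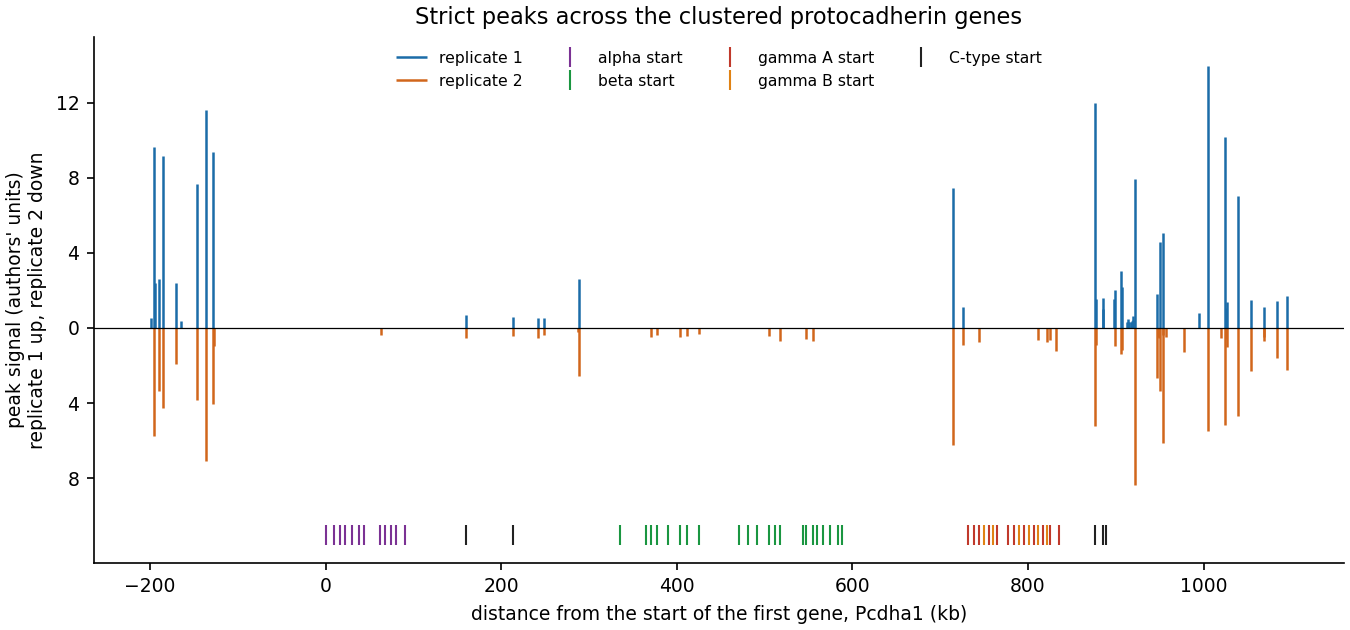
Signal of every strict peak (authors' units, replicate 1 upward and replicate 2 downward) against distance from the start of Pcdha1 in kb, with ticks for the starts of the 57 genes by family. Peaks of 5 or more in both libraries lie at Pcdhgc3, at downstream sites 10.4 and 41.8 kb past the gamma array and at genes outside the families, while over the alpha and beta starts replicate 1 shows none and replicate 2 short bars.

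With the permissive list, 10 members had a promoter peak in replicate 1 (68.2% of all genes), 29 in replicate 2 (67.6%) and 9 in both libraries (65.7%). The 9 were the 4 C-type genes other than Pcdhgc5 and Pcdhb7, Pcdhga3, Pcdhgb4, Pcdhgb5 and Pcdhgb6. A further 20 members had one in replicate 2 alone, 1 in replicate 1 alone, and 27 had none. The FDR track also grades promoters without a called peak. It is not independent of the lists, since every strict peak of the span held a base at 0.001 or less. It gave 11 members with a base at 0.05 or less in replicate 1 (69.0% of all genes) and 31 in replicate 2 (68.5%). Both libraries had such a base at 10 members (66.5%). At 0.001 or less the counts were 4 (64.0% of all genes) and 20 (64.1%), with 4 in both (62.2%).

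The 14 members open in replicate 2 alone had weak and narrow peaks. Their signals ran from 0.339 to 0.739 with a median of 0.546, at percentiles 6.81 to 43.9 (median 27.7) among all peaks of that library. The lowest FDR in these promoters was between 9.6e-09 and 0.00042 in replicate 2. In replicate 1, 3 of the 14 (Pcdhb7, Pcdhga3 and Pcdhgb6) had any base with an FDR under 0.05, at 0.00698 to 0.0148. Of the 17 members open in replicate 2, 16 had a signal in this range, of which 14 had no strict peak in replicate 1 and 11 had no base at an FDR of 0.05 or less there. Over all 1241 protein-coding genes with a replicate 2 promoter signal in the range, these shares were 19.4% and 5.80%. The range was set from members picked for having no replicate 1 peak, so the counts are a description.

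The libraries differed in depth or scaling as well. Signals in each library fell on a ladder of equal steps, 0.00557 in replicate 1 and 0.00459 in replicate 2, so that the finer step was in replicate 2. Over genes open in both, the median ratio of promoter signal in replicate 1 to that in replicate 2 was 1.83. The 9 members with permissive peaks in both ran from 0.655 at Pcdhb7 to 2.30 at Pcdhgc3, with a median of 1.37. Whether depth, enrichment or the animals account for the replicate 2 peaks was not tested.

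Most of these weak peaks lay at the starts of the genes. Over the 14 members the midpoint of the peak relative to the annotated start had a median of -47.5 bases, where negative values lie before the start, and relative to the coding start a median of -225 bases. Over all genes open in replicate 2, the median midpoint was at -22.5 bases from the start, with quartiles at -78.5 and 83.8. The peaks were narrow, with a median of 120.5 bases against 180 for all peaks. Further inside the gene lay the peaks of Pcdha8, at 539 bases past the start, and, in the permissive lists, Pcdhga1 and Pcdhga12.

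**Figure D3:**
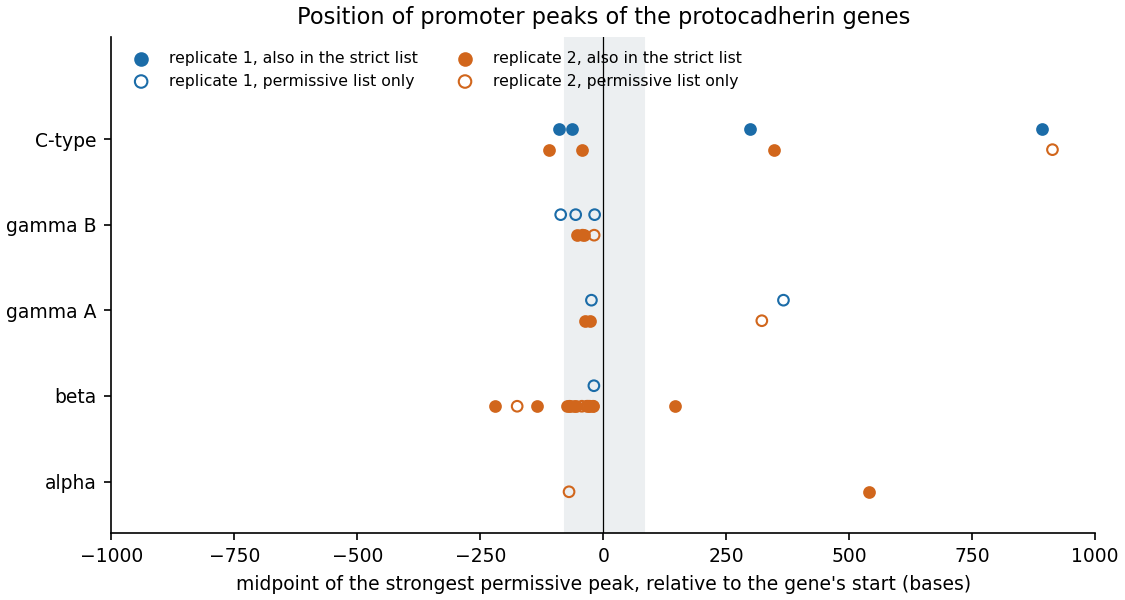
Midpoint of the strongest permissive promoter peak relative to the gene's 5-prime-most start, in bases, by family, with filled points for peaks also in the strict list and a grey band for the quartiles over all open protein-coding genes of replicate 2. Most beta and gamma points fall within or just before the band, while Pcdhac2, Pcdhgc4, Pcdha8, Pcdhga1 and Pcdhga12 lie further inside their genes.

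In CpG content, which usually goes with open promoters, the clustered protocadherin genes were close to the average gene. Their median CpG ratio was 0.483, and that of all protein-coding genes 0.484. Among all genes in the upper 5 deciles of this ratio 93.0% were open in both libraries. In the same deciles there were 28 members, of which 3 were open in both. All 12 alpha promoters (median 0.641) were among the 28, with none open in both libraries. The 22 beta promoters (median 0.334) were all in the lower 5 deciles. Across these deciles the share of all genes open in both libraries rose from 3.56% to 73.5%. No beta promoter was open in both, and 9 had a peak in replicate 2 alone. Pcdhgc5, the closed C-type gene, had the lowest ratio of that group (0.251).

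**Figure D4:**
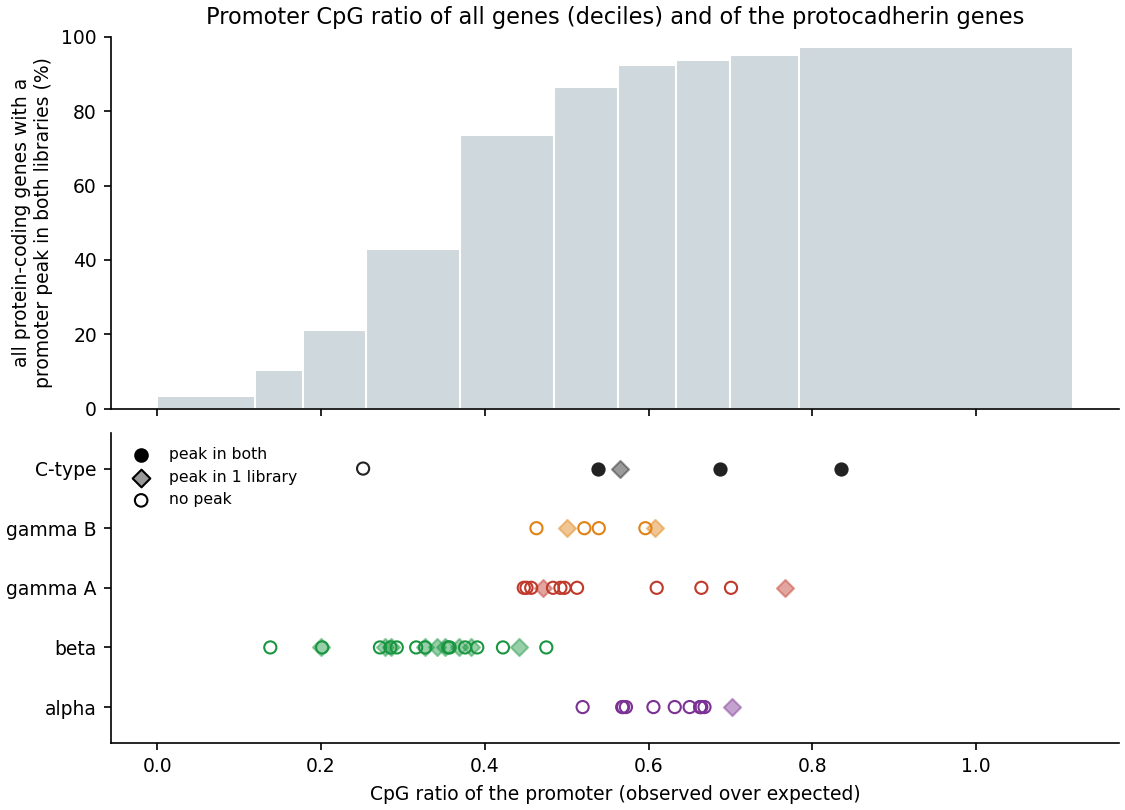
Top, share of all protein-coding genes with a promoter peak in both libraries (%) by decile of promoter CpG ratio, and bottom, the CpG ratio of the 57 members by family, filled for a peak in both libraries, diamonds for a peak in 1 and open circles for none. The share for all genes rises from 3.56% to 97.4%, while alpha promoters between 0.52 and 0.702 are closed but for the diamond of Pcdha8.

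Similarity between paralogs can remove reads that match several places. The share of 36-base words of the promoter window that occur once in the genome had a median of 89.3% in alpha, 99.97% in beta, 98.8% in gamma A, 91.0% in gamma B and 100% in C-type genes, and of 99.8% over other genes of chromosome 18. The lowest value, 75.6%, was that of Pcdha7. The 3 members open in both libraries each had 100%. The median was 92.07% over the 15 members open in 1 library and 94.05% over the 39 open in neither. Closed promoters with unique sequence occurred too, as Pcdhb1, Pcdhb18 and Pcdhb19 had 100%. The sources used here give neither the read length nor the treatment of reads with several matches. What mapping contributes, including that of CAST alleles, was not tested.

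Promoters of the arrays are known for a short conserved element with the letters CGCT, and its letters were looked for on both strands in the 300 bases up to the coding start. All 57 members held CGCT there, between 1 and 10 times, as did 59.8% of all protein-coding genes. The letters AGGNGGC, the core of the CTCF consensus, which can share their end base with CGCT, occurred in 6 of 57 members, or 10.5%, and in 28.5% of all genes. All 20 strict sites at variable promoters held CGCT, against 53.5% and 51.7% of all strict peaks. At promoters of other genes of the span it was 17 of 22 strict sites, or 77.3%. The annotated start of members lay a median of 162 bases before the coding start, at most 610, so the 300-base window lay at the promoter. In other genes it need not. Of all genes, 44.7% were open in both libraries around the coding start alone, against 61.7% around any start. A match of letters is a description, and identifies neither the conserved element nor a binding site. Members share these windows by descent and are not independent.

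Footprints at the variable promoters lay over CGCT in most members that had any. In replicate 2, 26 members had a footprint in the 300 bases and in 25 of these a CGCT lay at least partly in one. For all genes with both a footprint and CGCT in that window, which need not be promoter sequence in other genes, the figure was 64.6%. By family these were 16 of 16 beta, 3 of 3 gamma A, 4 of 4 gamma B and 2 of 3 C-type genes, Pcdhac2 being the exception, with no alpha gene having a footprint. The 16 beta genes had 43 footprints, and 18 of the 39 CGCT matches of the whole beta family lay in one. In replicate 1, 9 members had a footprint and 7 had a CGCT in one, against 59.3% of such genes. Strict peaks at variable promoters held 18.6 and 18.8 footprints per kb, against 13.9 and 15.05 over all strict peaks. These were 6 peaks in replicate 1, all at C-type genes, and 19 in replicate 2, so the 2 values cover differing promoters. In the span 59.6% and 61.4% of footprints lay in strict peaks, against 66.3% and 67.7% of all footprints. Footprints were called in each library alone with a threshold of 0.01, and any sequence preference of the enzyme was not examined.

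At the constant exons no strict peak was found in either library, with 500 bases added on both sides. The permissive lists held 2 sites, both in the gamma family. A site at the first gamma constant exon, 37824955 to 37825114, had 0.775 in replicate 1 alone. In the last gamma constant exon, which holds the end of the shared coding sequence and the common 3′ end, a site at 37841399 to 37841537 had 1.18 and 0.624. It contained AGGNGGC in a footprint of both libraries. No peak of any list lay at an alpha constant exon.

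Some introns between the constant exons held peaks in both libraries. In the gamma family, the sites at 37835281 to 37835780 (3.04 and 1.36) and 37836561 to 37836920 (2.17 and 1.19) lay between the second and the third constant exons. They were in both libraries, at percentiles 79.8 and 68.7 among all peaks for the first and 71.0 and 64.2 for the second. Between the first and second gamma constant exons, a site at 37829539 to 37829693 had 2.01 and 0.936 and coincides with a start of the gene Gm29994. A further one at 37828030 to 37828087 had 1.52 in replicate 1 alone. In the alpha family, sites of 0.546 and 0.509 (37172301 to 37172454, at a start of Gm38097) and of 0.524 and 0.376 (37178408 to 37178582, at a start of Gm10544) lay between the second and the third constant exons, both in both libraries. These alpha sites were weak, at percentiles 9.96 and 24.1 among all peaks for the first and 8.68 and 10.1 for the second.

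The stretch between the alpha and beta arrays held 1 site in both libraries, at 37218281 to 37218460. Its signals were 2.60 and 2.58, percentiles 76.1 and 84.4 among all peaks, and it lay 30.7 kb past the last alpha constant exon. It contained AGGNGGC once, within a footprint of both libraries. On the beta side, the 82.2 kb up to Pcdhb3, with the starts of Pcdhb1 and Pcdhb2, were without strict peaks. A gap of 159.1 kb, from 37485021 to 37644160, took in the starts of Pcdhb18 to Pcdhb22 and ended at Taf7, a general transcription factor gene between the beta and gamma arrays with signals of 7.45 and 6.21.

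Downstream of the gamma array, 7 sites had peaks in both libraries, with signals of at least 1.43 and 1.58. In replicate 1 the promoters of Pcdhgc3 and Pcdhgc4 exceeded the lowest of these values, and in replicate 2 that of Pcdhgc3. The strongest site, at 37852181 to 37852400, lay 10.4 kb past the end of the last gamma constant exon, inside the formin gene Diaph1. Its signals of 7.95 and 8.34 were percentiles 93.5 and 99.2 among all peaks, and AGGNGGC lay in a footprint of both libraries. A group of 3 followed in Diaph1, at 37877421 to 37877620 (1.83 and 2.67), 37880201 to 37880480 (4.55 and 3.34) and 37883561 to 37883760 (5.06 and 6.15), the last one 41.8 kb past the array. None of these 3 held AGGNGGC.

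The remaining 3 were further out, at 37984381 to 37984560 in Arap3 (1.49 and 2.29), at 38013821 to 38014020 (1.43 and 1.58) and at 38024981 to 38025160 (1.68 and 2.25). Of the 7 downstream sites, 3 held AGGNGGC in a footprint of both libraries, as did 16.2% of all shared sites of the genome. Across the 7 the ratio of replicate 1 to replicate 2 ran from 0.65 to 1.36 with a median of 0.823, while it was 1.54 over all shared peaks and 1.83 over open promoters. Whether these sites act on any protocadherin gene was not examined.

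**Figure D5:**
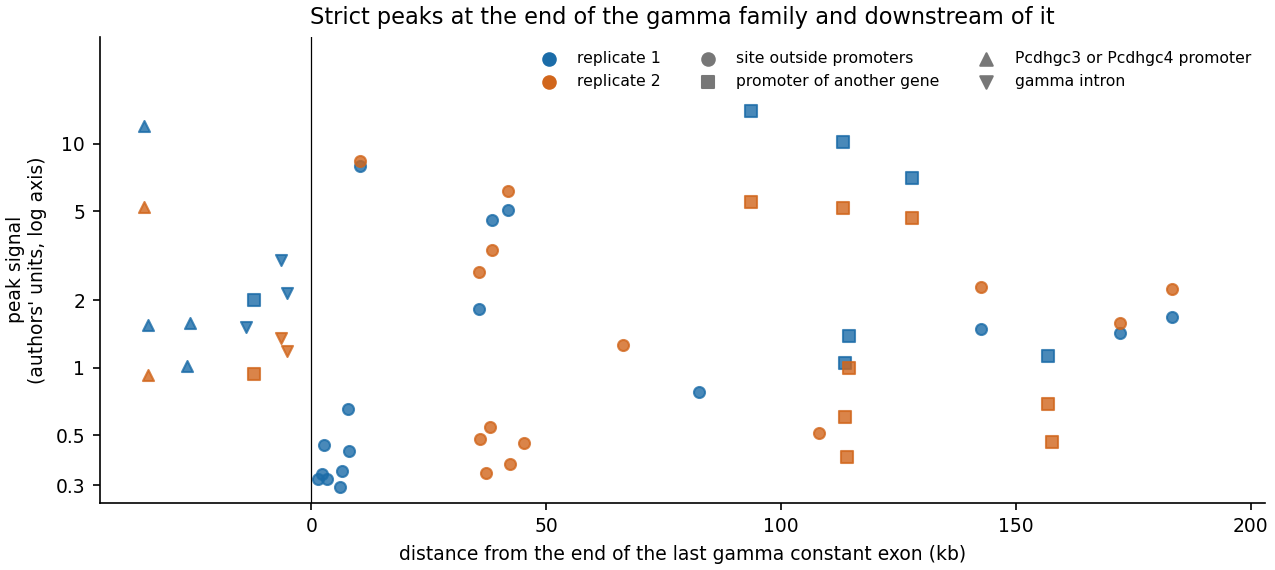
Signal of strict peaks (authors' units, log axis) against distance from the end of the last gamma constant exon in kb, blue for replicate 1 and orange for replicate 2, with symbols for the kind of site. The site at 10.4 kb reaches 7.95 and 8.34, blue points from 0.295 to 0.652 crowd between it and the array, and several weak orange points lie between 35.9 and 45.3 kb.

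Other downstream sites were found in 1 library alone. Between 1.48 and 8.07 kb past the gamma array, 8 sites were in replicate 1 alone, with signals of 0.295 to 0.652, and none of them was in the permissive list of replicate 2. A further 7 downstream sites were in replicate 2 alone, at 35.9 to 108 kb and signals of 0.339 to 1.27, and 1 more was in replicate 1 alone, at 82.6 kb with 0.78. Downstream, weak sites of a single library thus occurred in either library, and at variable promoters outside the C-type group the strict ones were in replicate 2.

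Over the whole span, 47 and 59 strict peaks merged into 73 sites, of which 32 were in both libraries. Of the peaks, 68.1% in replicate 1 and 55.9% in replicate 2 overlapped one of the other library, against 79.2% and 73.9% of all strict peaks. At variable promoters it was 4 of 6 peaks in replicate 1 and 5 of 19 in replicate 2. Between the first and last member there were 1.65 and 3.07 peaks per 100 kb, and on all of chromosome 18 there were 2.86 and 3.13. Of 14 shared sites with AGGNGGC, 7 had it in a footprint of both libraries, close to the 49.2% of all shared sites with these letters. In strict peaks of the whole genome the letters occurred in 27.4% and 27.5%.

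Of 18 other protein-coding genes of the span, 13 had a promoter peak in both libraries, or 72.2% against 61.7% of all genes, with Zmat2, a splicing factor gene, at 11.6 and 7.06, Diaph1 at 13.9 and 5.47 and Tmco6 at 9.61 and 5.75. Slc25a2, an intronless carrier gene between the beta and gamma arrays, had none. Gm37013, Gm37388 and Gm42416 are annotated as protein-coding genes that read through several arrays, and none of the 3 had a promoter peak.

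Protocadherins and large cadherins outside the clusters, which have ordinary promoters of their own, were open at 18 of 21, against 61.7% of all genes. Their median CpG ratio was 0.681, and in the decile of all genes with that ratio 93.6% were open in both libraries. The highest were Pcdh17 (8.96 and 5.22), Pcdh10 (7.29 and 4.40) and Fat1 (7.51 and 3.04), while Fat2 and Pcdh15 had no strict peak. The median gene percentile was 47.1 in this list, 18.3 for the clustered genes, which is that of closed genes, and 50.1 over all genes.

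Genes for proteins known to control the arrays were open at 18 of 19. Their median CpG ratio was 0.81, and in the decile of all genes with that ratio 97.4% were open in both libraries. The cohesin genes Stag1 (17.7 and 9.25) and Smc3 (14.97 and 8.85) and the cohesin release factor gene Wapl (13.1 and 6.26) were highest. Ctcf had 8.03 and 4.19, Smchd1, a chromatin protein that silences clustered protocadherins, 11.3 and 4.56, and Dnmt3b, the methyltransferase that acts on their promoters, 2.16 and 1.68. Tet1, which oxidises methylated cytosine, had no peak. For proteins that bind the constant domains or signal from them, 10 of 11 genes were open, with a median CpG ratio of 0.651. In the decile of all genes with that ratio 93.6% were open in both libraries. By mean percentile the highest were Pdcd10 (13.3 and 8.25), the focal adhesion kinase gene Ptk2 (7.29 and 7.82) and Abi2 (9.53 and 5.34), although in replicate 1 several others, such as Wasf1 (11.6), exceeded Ptk2. Ptk2b, its relative, had none.

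Markers of other cells of the muscle were read beside these values, since the arrays are best known in neurons. Of all protein-coding genes 61.7% were open in both libraries. Schwann cell markers were open in both at 5 of 7 promoters, fibroblast markers at 5 of 6 and endothelial markers at 4 of 6. Leukocyte markers were open in both at 1 of 5 promoters and neuronal markers at 4 of 9. The 4 neuronal ones were Map2 (4.69 and 1.99), Snap25 (2.63 and 2.73), Tubb3 (0.925 and 0.711) and Syt1 (0.552 and 0.261). Of the other neuronal markers, Rbfox3 (0.422) and Gad1 (0.564) had a promoter peak in replicate 2 and none in the strict list of replicate 1. So did the endothelial Pecam1 (0.495) and the fibroblast gene Lum (0.555). Stmn2, Elavl3 and Slc17a7 had no strict peak. The part of these cell types in the protocadherin peaks was not tested.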

How the data were processed

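The deposited files of 2 DNase-seq libraries were used unchanged. Peak signal is the authors' value in the deposited peak lists, called per library on mm10, per the file headers, with scaling not given in the sources used here. Both the FDR values per base (a p-value type of measure, adjusted) and the footprint threshold of 0.01 are the authors' own, as deposited, and bases above 0.05 are not listed. Neither the aligner nor the callers are named in these sources. The list with fewer rows was taken as strict. Per the labels, replicate 1 was sequenced on 2 instrument models.

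Genes came from the GENCODE basic annotation of mm10. All 57 members matched RefSeq with starts within 1 kb. A promoter was 1 kb on either side of any start outside constant exons, with an overlap of at least 1 base, and a constant exon was one shared by 3 or more members. Sites were merged over libraries and classed in the order variable promoter, constant exon, other promoter, variable exon, elsewhere. CpG ratios, 36-base words and letters were read from the mm10 genome. Members, gene lists and the rule for naming genes (members with a strict peak in either library, and of each list the 3 with the highest mean percentile and up to 2 with no peak) were chosen with earlier results of these data known. Other members, Ctcf, Smchd1, Dnmt3b and the cell markers named were chosen after their values were seen. No test was run, since there is 1 group. The overlap functions were tested on simulated intervals. Read totals are unknown, so intervals from counting error are not given. Alternatives were other windows, starts, flanks and overlaps, the permissive list, peaks at or above the median signal, and each library alone. Python 3.11.15, NumPy 2.4.6, pandas 2.3.3, pysam 0.24.0 and matplotlib 3.10.9 were used.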

Additional observations from a re-analysis of the deposited data

How the results depend on the processing

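Members open in both libraries numbered 3, and 9 in the permissive list, 1 (Pcdhgc3) with peaks below their library's median signal left out, and 4 to 17 in single libraries. Replicate 1 alone gave the lower number and replicate 2 the higher, and the cause was not tested. Windows of 250 or 2500 bases, other choices of starts and an overlap of 50% gave 2 or 3. By family, the permissive list gave 1 beta, 1 gamma A and 3 gamma B genes in place of 0, the median signal left 1 C-type gene of 3, and single libraries gave 0 to 1 alpha, 0 to 9 beta, 0 to 2 gamma A, 0 to 2 gamma B and 3 to 4 C-type genes. The mean percentile of Pcdhgc3 ran from 82.6 to 88.4 over single libraries and was 83.5 when its peaks were summed.

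Shared sites at variable promoters numbered 4, and 10 in the permissive list and 6 to 19 in single libraries. At constant exons there were 0, with 1 in the permissive list, and inside variable exons 0, with 1 when promoters were 250 bases. Between alpha and beta there was 1, with 2 in the permissive list and 1 to 2 in single libraries. Upstream there was 1, with 3 in the permissive list, 0 with flanks of 100 kb, 10 with 500 kb and 2 in each library alone. Downstream there were 7, with 12 in the permissive list, 4 and 18 with those flanks and 14 to 16 in single libraries. Shared promoters of other genes numbered 17, and 6 and 34 with those flanks. Constant exon and downstream sites, counted together with those between alpha and beta, numbered 8, with 15 in the permissive list and 16 to 17 in single libraries. Footprints per kb of peak were 16.1, and 13.2 in permissive peaks and 14.9 to 17.4 in single libraries.

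With 2 libraries, unknown read totals and 1 group, the strict peaks at variable promoters outside the C-type group rest on replicate 2, and absence of a peak says that none was called, not that a promoter is inaccessible. No paired analysis was possible because there is 1 group and no contrast.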
